A study of Mus musculus with 4 samples.

Results

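The cells described here are 1069 barcodes of the adult mouse olfactory epithelium that carried transcripts of both Tex15 and Crabp1 while holding few transcripts of the precursor genes Neurod1 and Neurog1, of the mature neuron gene Omp, and of the support cell gene Cyp2g1. They made up 2.69% of the 39715 barcodes that passed a filter of at least 500 detected genes and at most 10% of transcripts from mitochondrial genes. A barcode was chosen when Tex15 and Crabp1 together had at least 5 UMIs and each had at least 1, Neurod1 plus Neurog1 had at most 5, Omp at most 10 and Cyp2g1 at most 30. Counts are of unique molecular identifiers (UMIs), so each stands for an RNA molecule and not for a read. The barcodes are called Tex15/Crabp1 cells below. Because measured transcripts chose them, levels in these cells against other barcodes are given as a description, with no test.

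The series holds 4 droplet libraries of dissociated main olfactory epithelium from wild type C57BL/6J mice at 3 month of age, 2 from females and 2 from males. All groups share this genotype, strain and age, and the labels name no treatment. The chemistry reads the 5′ end of transcripts. The series as a whole concerns neurexins, a family of presynaptic adhesion proteins, in the wiring of olfactory axons. The labels do not say how many animals made a library, so p-values between the sexes measure only the spread between these samples.

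Olfactory neurons are replaced throughout life from basal stem cells. Dividing precursors switch on the basic helix-loop-helix factors Neurog1 and Neurod1, leave the cell cycle, extend an axon marked by Gap43, and finally switch on Omp and the odorant transduction machinery. On the way each neuron moves from transcribing a low level of several odorant receptor genes to a high level of a single one, a step that involves the factors Lhx2, Ldb1 and Ebf and the histone demethylase Lsd1 (gene Kdm1a).

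Female 1 held 318 Tex15/Crabp1 cells, female 2 held 233, male 1 held 254 and male 2 held 264. As shares of passing barcodes these were 3.11% (95% exact Clopper-Pearson interval 2.78% to 3.47%), 2.39% (2.09% to 2.71%), 2.63% (2.32% to 2.97%) and 2.62% (2.32% to 2.95%), and the intervals cover counting error only. Female 1 was highest and female 2 lowest, so both males lay between the females. The mean share was 2.63% ± 0.00472 in males and 2.75% ± 0.513 in females (SD, n = 2 each; exact two-sided permutation p = 1, where 2 against 2 samples cannot go below 0.33).

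Depth in Tex15/Crabp1 cells was close to that of other barcodes. Their median UMI count was 8831, 9067, 8691.5 and 8231.5 in female 1, female 2, male 1 and male 2, against 9524.5, 9289.5, 8987 and 8662 in all other passing barcodes of the same libraries. Single Tex15/Crabp1 cells ranged from 698 to 45229 UMIs. Simulated doublets marked 14 of the 1069, or 0% to 2.27% per library, against 8.79% to 9.31% of other barcodes. Library totals lay between 100725429 and 111577458 UMIs over 41911 barcodes in all. Pairs of libraries shared 136 to 172 cell barcodes, and at most 1 barcode of a pair was a Tex15/Crabp1 cell in both.

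Levels are given below as CPM, UMIs per 1000000 of the summed UMIs of a set of barcodes in a library, and as the mean of the 4 libraries ± SD (n = 4). There were 5 comparison sets. All other passing barcodes are the rest. Neurod1/Neurog1-high barcodes (792) had more than 5 UMIs of these genes. Gap43 barcodes (1663) had at least 5 Gap43 UMIs and at most 5 of Neurod1 plus Neurog1, and were not Tex15/Crabp1 cells. Both kept the same Omp and Cyp2g1 limits as the Tex15/Crabp1 cells. Omp-high barcodes (18938) exceeded 10 Omp UMIs with Cyp2g1 at most 30, and Cyp2g1-high barcodes (6120) exceeded 30 Cyp2g1 UMIs with Omp at most 10. The sets are defined by these limits, and no order in time was measured.

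Tex15, known for its role in meiosis and in transposon silencing in male germ cells, reached 2874, 2826, 2436 and 2397 CPM in female 1, female 2, male 1 and male 2. Both females were above both males. The mean over the rest was 48.6 CPM, and it was 247 CPM in Neurod1/Neurog1-high, 4.72 CPM in Gap43 and 16.7 CPM in Omp-high barcodes. Crabp1, which encodes a cytosolic carrier of retinoic acid, had 6553, 7710, 8004 and 7159 CPM in the same order, against 236 CPM in the rest, 2169 CPM in Neurod1/Neurog1-high and 216 CPM in Gap43 barcodes. A Tex15/Crabp1 cell held a median of 21 Tex15 and 59 Crabp1 UMIs, far from the lower limit of the rule.

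The other 2 label markers were not used to choose the cells. Lypd1 (chr1:125867622-125913101, minus strand of GRCm38), a Ly6-family membrane protein that modulates nicotinic acetylcholine receptors, had 154, 202, 200 and 152 CPM in female 1, female 2, male 1 and male 2. Female 2 and male 1 were high and the other two low, so the sexes overlapped. Lypd1 was at 7.52 CPM in the rest, 68.5 CPM in Neurod1/Neurog1-high and 12.8 CPM in Gap43 barcodes. It was detected in 49.6% to 59.4% of Tex15/Crabp1 cells per library and in 1.07% to 1.42% of Omp-high barcodes, at median depths of 8231.5 to 9067 and 8091 to 8939.5 UMIs. Qdpr (chr5:45434021-45450236, minus strand), the dihydropteridine reductase that recycles tetrahydrobiopterin, had 1929, 2009, 2319 and 2040 CPM, and its 4 libraries lay close together. Its means were 141 CPM in the rest, 570 CPM in Neurod1/Neurog1-high and 711 CPM in Gap43 barcodes. Lypd1 and Qdpr were therefore high in these cells beside the rest, but Lypd1 was at 0 UMIs in a large part of them. Tex15 and Crabp1 were high by the rule itself. Against Neurod1/Neurog1-high barcodes, Lypd1 was not at least 2-fold higher in every library.

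Most cells with Tex15 and Crabp1 transcripts did not enter the set. Of 3215 passing barcodes that met the Tex15 and Crabp1 limits, 1683 (52.3%) exceeded the Cyp2g1 limit, 775 the Omp limit and 372 the Neurod1 plus Neurog1 limit, with overlaps, and 33.3% were kept. Tex15 was detected in 52.4% to 54.1% of Cyp2g1-high barcodes, which are support cells by their Cyp2g1 transcripts, at 103 ± 6.2 CPM. After each barcode was thinned to 5000 UMIs the share was 26.4% to 30.1% there and 1.85% to 2.91% in Omp-high barcodes. Tex15 transcripts were thus also found in many support cells.

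Barcodes near the limits were few. There were 27 cells with exactly 5 Tex15 plus Crabp1 UMIs and 24 barcodes with 4 that met the other limits. There were 55 cells with 4 to 5 Neurod1 plus Neurog1 UMIs, at 1718 CPM of Tex15, and 31 barcodes with 6 to 7, at 2016 CPM. At the Omp limit 12 cells had 8 to 10 UMIs and 5 barcodes had 11 to 13. At the Cyp2g1 limit 9 cells had 21 to 30 UMIs and 10 barcodes had 31 to 40.

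The word postmitotic in the label could be checked against 15 markers of cycling cells. Mki67, a nuclear protein of dividing cells, was detected in 1.29% to 3.94% of Tex15/Crabp1 cells per library, in 41.1% to 45.2% of Neurod1/Neurog1-high barcodes and in 1.25% to 2.64% of Gap43 barcodes. Its level was 4.62, 1.5, 15.6 and 31.5 CPM in female 1, female 2, male 1 and male 2, so both males lay above both females. All 15 cycling markers were at least 2-fold lower than in Neurod1/Neurog1-high barcodes in each of the 4 libraries, with a median log2 ratio of -4.41. None of the 9 that could be compared differed in this way from Gap43 barcodes, against which 3.81% of all genes were higher and 4.92% lower. Against the rest, which includes cycling and resting barcodes, Mcm6 was higher and 0 of 11 were lower, with a median of -0.81. Their summed level was 116 to 347 CPM per library, overlapping the 237 to 270 CPM of the rest. Mki67 was lower in the males when only 793 cells were taken, at 4.69, 1.20, 5.24 and 9.48 CPM in the same order of libraries. These cells had at least 5000 UMIs and fewer than 5 UMIs of the keratins Krt8 and Krt18. Neurod1 was at 0 UMIs in 82.3% of all Tex15/Crabp1 cells and Neurog1 in 77.9%, but the rule itself allowed at most 5 UMIs of both together. Cycling transcripts were thus low beside Neurod1/Neurog1-high barcodes, while no cycling marker met the limit for lower against the rest, and "earliest" refers to an order that was not measured.

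Gap43, the growth-cone protein of neurons extending an axon, had 381, 380, 349 and 418 CPM in female 1, female 2, male 1 and male 2. It was low in all 4 libraries beside the 2154 ± 164 CPM of Gap43 barcodes, which were chosen for it, and high beside the 45.7 ± 10.1 CPM of Neurod1/Neurog1-high barcodes. Among Tex15/Crabp1 cells 32.3% had no Gap43 UMI and the median was 1 UMI. Gng8, a G protein subunit of immature olfactory neurons, followed the same order, with 734 ± 159 CPM against 495 ± 83.2 CPM and 1030 ± 137 CPM. Omp, which marks mature olfactory neurons, was at 0 UMIs in 33.9% of the cells, with a median of 1 UMI. The rule itself allowed at most 10 Omp UMIs.

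**Figure D1:**
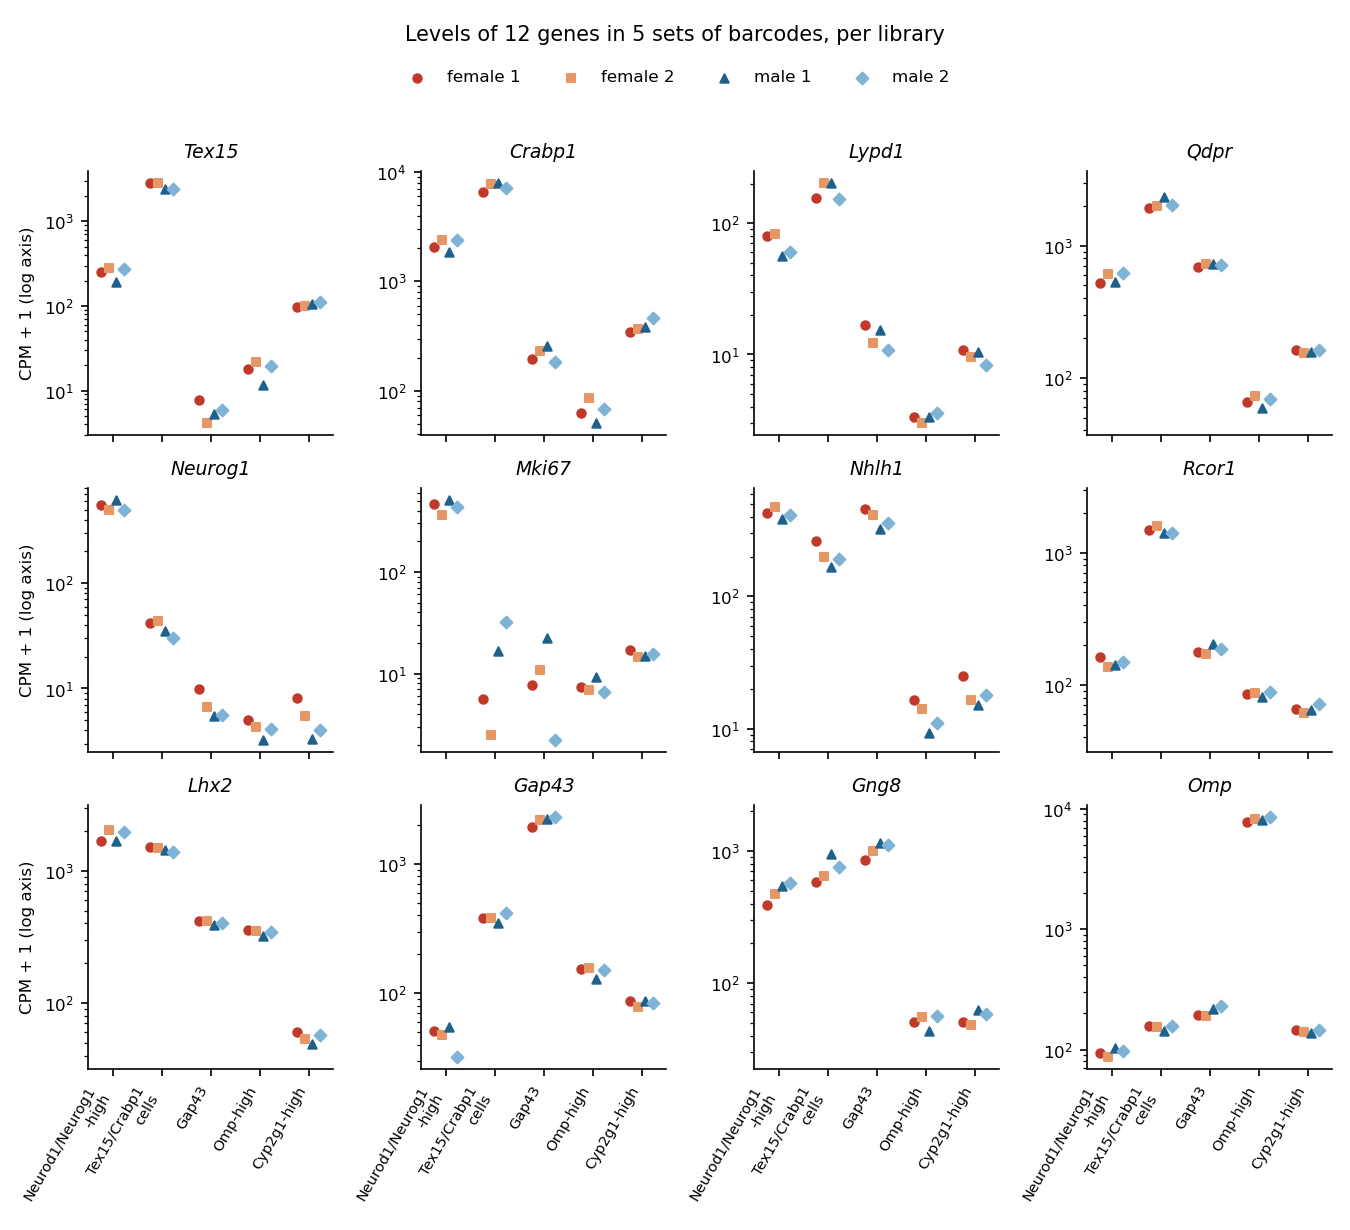
Levels of 12 genes in the Tex15/Crabp1 cells and 4 comparison sets. Each panel is 1 gene, the y axis is CPM + 1 on a log axis, the x axis gives the set and each point is 1 library. Gap43 lies between 349 and 418 CPM in the Tex15/Crabp1 cells, above Neurod1/Neurog1-high and below Gap43 barcodes, while Nhlh1 dips and Rcor1 peaks in the Tex15/Crabp1 cells.

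Counts of genes follow 1 rule: a gene was called higher or lower when it differed at least 2-fold in the same direction in each of the 4 libraries, with 1 CPM added to both levels and at least 10 CPM in either set. Against the rest, 948 of 10604 genes were higher (8.94%) and 1839 lower (17.3%). Against Neurod1/Neurog1-high barcodes 723 of 10023 were higher (7.21%) and 808 lower (8.06%). Against Gap43 barcodes 373 of 9793 were higher (3.81%) and 482 lower (4.92%). The rule that chose the cells used these contrasts, so the shares only give a scale for the counts of gene lists below. The median log2 ratio over all genes outside the rule was 0.01, -0.04 and -0.10 in the 3 contrasts.

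Transcription factors of neurogenesis were prominent in the Tex15/Crabp1 cells. Of 32 such factors that could be compared with the rest, 18 were higher and 4 lower (Hes1, Sox2, Isl1 and Mef2c), with a median log2 ratio of 1.52. Against Neurod1/Neurog1-high barcodes 7 of 33 were higher and 7 lower, with a median of -0.41. Against Gap43 barcodes 9 of 29 were higher and only Insm1 was lower, with a median of 0.87.

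The mean levels of the factors followed 3 patterns. Insm1, a zinc-finger repressor of the precursor-to-neuron step, had 364, 306, 211 and 365 CPM in the 4 libraries, below the 1204 CPM of Neurod1/Neurog1-high and the 826 CPM of Gap43 barcodes. Its lowest library was male 1. Nhlh1, a basic helix-loop-helix factor of newly formed neurons, was likewise below both at 204 ± 40.5 CPM, against 424 CPM and 387 CPM. Of the pair only Insm1 was at least 2-fold lower in every library, which it was against both sets.

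In a second pattern the mean descended from the Neurod1/Neurog1-high barcodes to the Gap43 barcodes. Hes6, which promotes neuronal differentiation, was at 682 CPM in the former, 445 ± 30.1 CPM in Tex15/Crabp1 cells and 70.8 CPM in the latter. Sox11, a factor of newly postmitotic neurons, was at 1728, 1307 ± 142 and 662 CPM in the same order. Lhx2, a LIM-homeodomain factor needed for olfactory neuron differentiation and bound at receptor enhancers, was at 1834, 1453 ± 60.9 and 405 CPM. Lhx2 in single libraries was 1507, 1497, 1427 and 1378 CPM in the Tex15/Crabp1 cells, a narrow range far above the Gap43 barcodes. St18, a zinc-finger factor, was at 94.4 CPM in Neurod1/Neurog1-high barcodes and at 5.02 ± 2.62 CPM in Tex15/Crabp1 cells.

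In the third pattern the mean was above both neighbours. Myt1l, a zinc-finger factor that represses non-neuronal genes, had 1663, 1470, 1369 and 1407 CPM, against 411 CPM in Neurod1/Neurog1-high and 386 CPM in Gap43 barcodes. The Ebf factors bind olfactory-specific promoters and receptor enhancers. Ebf1 was at 944 ± 110 CPM against 356 and 519 CPM, Ebf2 at 1759 ± 195 CPM against 767 and 958 CPM, and Ebf3 at 1195 ± 63.6 CPM against 457 and 477 CPM. Ldb1, the partner of Lhx2, was at 514 ± 49.9 CPM against 279 and 252 CPM, and Tshz1, a zinc-finger factor, at 529 ± 46.0 CPM against 227 and 218 CPM. Of these genes, Myt1l, Ebf3 and Tshz1 were at least 2-fold higher in every library against both neighbours, Ebf1 and Ebf2 only against Neurod1/Neurog1-high barcodes, and Ldb1 against neither. Myt1l was at 317 CPM in Omp-high barcodes.

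Cell cycle exit genes differed mainly from Neurod1/Neurog1-high barcodes. Of 12, only Cdkn2d was higher than in the rest and only Ccnd2 lower. Against Neurod1/Neurog1-high barcodes 0 of 12 were higher and 6 lower (8.06% of all genes were lower in this contrast), among them the cyclin-dependent kinase inhibitor Cdkn1b, at 61.0 ± 6.77 CPM against 238 CPM. Cdkn2d, another inhibitor, was at 80.0 ± 5.14 CPM against 54.7 CPM there and 80.4 CPM in Gap43 barcodes.

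The genes with the highest ratios to the rest were picked from the 2 female libraries, and their male values are given beside them. Rcor1, the CoREST scaffold that joins Lsd1 and histone deacetylases into a repressor complex (chr12:111039351-111115901, plus strand), had 1488 and 1576 CPM in females and 1414 and 1408 CPM in males. Its level was 84.1 CPM in the rest, 145 CPM in Neurod1/Neurog1-high, 183 CPM in Gap43, 83.8 CPM in Omp-high and 64.3 CPM in Cyp2g1-high barcodes. Every library of Tex15/Crabp1 cells was far above all comparison sets. Kdm1a, its partner Lsd1, showed less contrast, at 424 ± 16.7 CPM against 611 CPM in Neurod1/Neurog1-high and 337 CPM in Gap43 barcodes. Rcor2, a paralogue of Rcor1, was at 96.5 ± 17.3 CPM, below the 268 CPM of Neurod1/Neurog1-high and above the 30.3 CPM of Gap43 barcodes.

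Ret, the receptor tyrosine kinase of the glial-derived neurotrophic factor family (chr6:118151745-118197718, minus strand), had 42.3 and 41.1 CPM in females and 51.7 and 48.6 CPM in males. Every other set was low, with 0.706 CPM in the rest, 0.748 CPM in Neurod1/Neurog1-high and 1.24 CPM in Gap43 barcodes. Alk, another receptor tyrosine kinase, had 50.8 and 52.1 CPM in females and 33.0 and 38.7 CPM in males, against 0.445 and 4.79 CPM. Males were lower than females for Alk and higher for Ret. Ghr, the growth hormone receptor, was at 58.5 ± 4.91 CPM against 3.30 and 5.71 CPM. Cntfr, the ciliary neurotrophic factor receptor, was at 39.3 ± 7.89 CPM against 0.952 and 5.84 CPM.

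Grin2a, an NMDA receptor subunit, was at 33.6 ± 5.28 CPM against 0.224 CPM in Neurod1/Neurog1-high and 1.11 CPM in Gap43 barcodes. Asic2, an acid-sensing ion channel, was at 34.0 ± 4.92 CPM against 8.07 and 1.09 CPM. Brinp1, a neuronal protein known to restrain the cell cycle, was at 150 ± 13.4 CPM against 44.6 and 23.4 CPM.

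Tac1, which encodes the precursor of substance P, was at 49.7, 46.6, 70.5 and 45.0 CPM, with male 1 highest. It was at 13.9 CPM in Neurod1/Neurog1-high and 0.215 CPM in Gap43 barcodes. Dusp4, a phosphatase of MAP kinases, was at 585 ± 101 CPM, above 419 CPM and far above 87.9 CPM in the same 2 sets. Col9a2, a collagen chain, was at 191 ± 20.7 CPM, near the 183 CPM of Neurod1/Neurog1-high and above the 26.6 CPM of Gap43 barcodes. Thus some genes that set the cells apart from the rest were shared with the precursor side, and others were not.

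A second rule took the genes with the highest smallest ratio over both neighbouring sets in all 4 libraries. Its 15 genes included Ret, Rcor1, Rasl10b, Alk and Robo3, which were also among the genes picked against the rest. The others included Igfbp3, an insulin-like growth factor binding protein, at 113 ± 19.9 CPM against 7.44 and 11 CPM, and the homeobox gene Dlx5, at 216 ± 34.9 CPM against 33.9 and 30.6 CPM. Id4, an inhibitor of basic helix-loop-helix factors, was at 380 ± 83.5 CPM against 63.9 and 76.8 CPM. Tcf15, a basic helix-loop-helix factor, was at 62.7 ± 19.2 CPM against 3.88 and 8.48 CPM. Dlx5 was at 74.1 CPM and Hmga2, an architectural chromatin protein, at 28.6 CPM in Cyp2g1-high barcodes, so neither was low everywhere else.

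**Figure D2:**
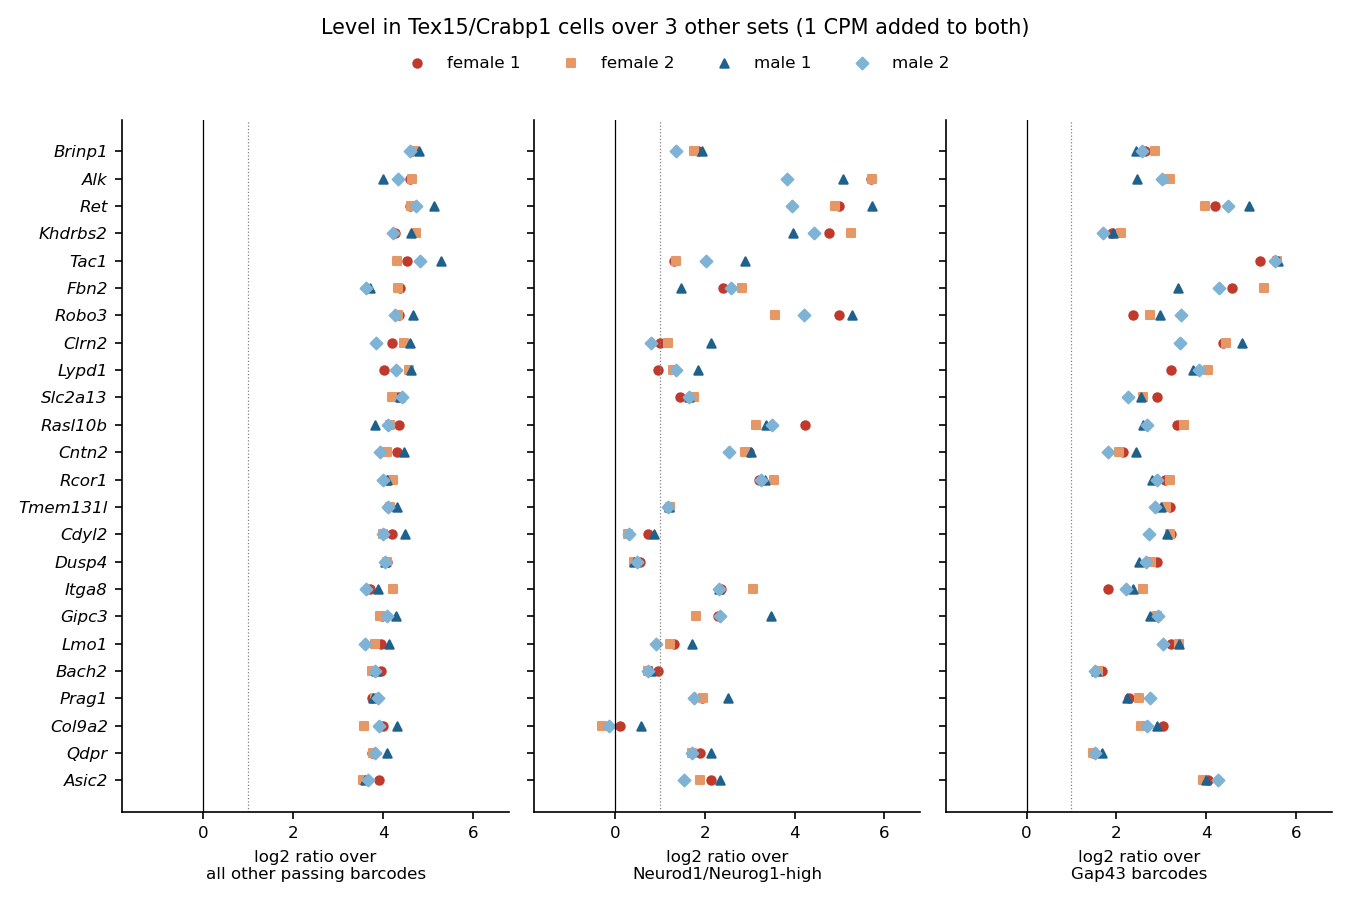
Log2 ratio of the level in Tex15/Crabp1 cells to that in all other passing barcodes (left), Neurod1/Neurog1-high barcodes (middle) and Gap43 barcodes (right), with 1 CPM added to both levels, for genes picked from the females as highest against the rest. Each point is 1 library and the dotted line marks a 2-fold ratio. Genes such as Dusp4 and Col9a2 are near 0 against Neurod1/Neurog1-high barcodes, whereas Ret, Alk and Rcor1 are high in all 3 panels.

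At the low end were Krt5 and Krt14, keratins of horizontal basal cells, with 0.711, 0 and 0.458 CPM of Krt5 in female 1, female 2 and male 1 but 17.5 CPM in male 2. The rest had 103 CPM. S100a5, a calcium-binding protein of mature olfactory neurons, was at 239 ± 55.2 CPM against 6582 CPM in the rest. Nrn1l, a neuritin relative, was at 18.1 ± 1.99 CPM against 455 CPM.

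Genes of the retinoic acid pathway did not follow Crabp1. Of 8 that could be compared with the rest, Rara and Fabp5 were higher and Crabp2, Aldh1a1, Dhrs3 and Rarb lower. Crabp2, the related carrier, was at 34.3 ± 3.62 CPM in Tex15/Crabp1 cells, against 265 CPM in Neurod1/Neurog1-high, 17.7 CPM in Gap43 and 330 CPM in Cyp2g1-high barcodes. Aldh1a3, an enzyme that makes retinoic acid, was at 2.14 CPM against 67.4 CPM in Neurod1/Neurog1-high barcodes. Rara, a nuclear receptor for it, was at 91.2 ± 15.1 CPM, below the 126 CPM of Neurod1/Neurog1-high and above the 17.7 CPM of Gap43 barcodes.

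Partners of Qdpr and Tex15 were not called higher than in the rest, but few of them could be compared. Among 7 genes of tetrahydrobiopterin handling, only Qdpr was higher than in the rest and Gch1, Gchfr, Spr and Pcbd2 were lower. Spr was at 11.3 ± 3.60 CPM against 60.1 CPM. Against Neurod1/Neurog1-high and Gap43 barcodes only Qdpr of 6 was higher and 0 were lower, with median log2 ratios of -0.23 and -0.02. Of the hydroxylases that use this cofactor, Th and Tph1 had no UMI in the 9218019 UMIs of the Tex15/Crabp1 cells. Among 5 genes of germline transposon silencing none was higher and Tdrd7 and Mov10 were lower. Over all genes 8.94% were higher and 17.3% lower in this contrast, so 0 of 5 higher is near the share of all genes. The list outside Tex15 summed to 312 to 348 CPM per library, against 233 to 239 CPM in the rest. Against Neurod1/Neurog1-high barcodes Dnmt3a was higher and Uhrf1 lower. Piwil1, Mael, Dnmt3c, Mov10l1, Asz1 and Gtsf1 of that list had no UMI. Among 7 Ly6-family and nicotinic receptor genes only Lypd1 was higher, and Lynx1, Ly6e and Ly6a were lower.

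Axon guidance genes were mixed. Of 38 compared with the rest, 10 were higher and 9 lower, with a median of 0.15. Of 36 compared with Neurod1/Neurog1-high barcodes, 14 were higher and 2 lower. Of 35 compared with Gap43 barcodes, 8 were higher and 5 lower. Over all genes 8.94% were higher and 17.3% lower against the rest. The shares were 7.21% and 8.06% against Neurod1/Neurog1-high and 3.81% and 4.92% against Gap43 barcodes.

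Nrp2, a co-receptor for class 3 semaphorins that patterns olfactory axons, had 865, 925, 688 and 772 CPM in female 1, female 2, male 1 and male 2. Both females were above both males, and every library was above the 198 CPM of Neurod1/Neurog1-high and the 257 CPM of Gap43 barcodes. Nrp1, the other neuropilin, was at 105 ± 8.13 CPM, close to the 120 ± 11.4 CPM of Gap43 barcodes and above the 8.2 CPM of Neurod1/Neurog1-high barcodes. Robo3, a receptor of the Roundabout family, was at 32.3 ± 5.41 CPM against 0.623 and 3.73 CPM. Cxcr4, a chemokine receptor of migrating cells, was at 57.9 ± 15.3 CPM, near the 76.8 ± 13.6 CPM of Neurod1/Neurog1-high barcodes and above the 3.91 CPM of Gap43 barcodes. Plxna1 and Plxna4, semaphorin receptors, were lower than in Gap43 barcodes, Plxna4 at 16.6 ± 0.888 CPM against 48.1 CPM.

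Kirrel2, an adhesion molecule whose level follows activity in mature olfactory neurons, was at 93.9 ± 17.3 CPM against 1024 CPM in Omp-high barcodes. Sema7a, a membrane-anchored semaphorin, was at 257 ± 56.6 CPM, with female 1 highest at 332 CPM and male 1 lowest at 201 CPM. It was at 96.2 CPM in Neurod1/Neurog1-high and 105 CPM in Gap43 barcodes.

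Many growth cone and cytoskeleton genes were high. Of 31, 18 were higher than in the rest and 2 lower (Stmn4 and Tubb2a), with a median of 1.42. Against Gap43 barcodes only Cd24a was higher and 6 were lower, including Gap43 itself, Dcx and Stmn4. Stmn2, a microtubule regulator of growth cones, was at 2038 ± 92.4 CPM, between 1358 CPM in Neurod1/Neurog1-high and 2959 CPM in Gap43 barcodes. Dcx, a microtubule-binding protein of migrating neurons, was at 118 ± 10.4 CPM, between 33.9 and 306 CPM. Dpysl3, a collapsin response mediator, was at 1352 ± 65.1 CPM, between 836 and 1556 CPM.

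Of the neurexins, Nrxn2 had 91.3, 95.2, 84.3 and 90.8 CPM in female 1, female 2, male 1 and male 2, against 13.2 ± 1.78 CPM in Neurod1/Neurog1-high and 91.6 ± 2.41 CPM in Gap43 barcodes. Nrxn2 thus stood at the level of Gap43 barcodes in every library and was 19.5 ± 0.970 CPM in Omp-high barcodes. Nrxn3 was at 4.05 ± 1.29 CPM, within the spread of its neighbours. Of 16 synaptic organisers compared with the rest, 4 were higher, Nrxn2 among them, and 2 lower. Of 15 compared with Neurod1/Neurog1-high barcodes 6 were higher, among them Nrxn2 and Cntnap2, a neurexin relative, and none was lower. Pclo, a scaffold of the presynaptic active zone, was at 768 ± 27.3 CPM, above the 438 and 343 CPM of the neighbouring sets.

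Most odorant transduction genes were below the rest. Of 24, only Gng8 was higher than in the rest and 19 were lower, with a median of -2.08. Against Neurod1/Neurog1-high barcodes 11 of 22 were higher and only Gnas was lower, and against Gap43 barcodes 0 of 22 were higher and 5 lower.

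Gng13, a G protein gamma subunit of olfactory cilia, was at 509, 650, 878 and 683 CPM in female 1, female 2, male 1 and male 2, within reach of the 808 ± 184 CPM of Gap43 barcodes and above the 86.0 CPM of Neurod1/Neurog1-high barcodes. Adcy3, the adenylyl cyclase of transduction, was at 168 ± 10.9 CPM, above both the 39.2 CPM of Neurod1/Neurog1-high and the 109 CPM of Gap43 barcodes, but far below the 1497 CPM of Omp-high barcodes. Gnal, the olfactory G protein alpha subunit, was at 223 ± 17.3 CPM, between 57.1 and 441 CPM. Cnga2, the channel subunit, was at 36.0 ± 9.52 CPM, against 16.9, 195 and 979 CPM in Neurod1/Neurog1-high, Gap43 and Omp-high barcodes. The genes of 1 pathway therefore took different positions between the neighbouring sets.

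Genes tied to receptor choice and its feedback were called in both directions. Of 20 compared with the rest, Lhx2, Ldb1, Ebf1, Emx2 and Kdm1a were higher and Rtp1, Rtp2 and Adcy3 lower. Over all genes 8.94% were higher and 17.3% lower in this contrast, so the lower calls were near the share of all genes. Against Neurod1/Neurog1-high barcodes 5 of 20 were higher and 4 lower, and against Gap43 barcodes 1 of 21 was higher and 5 lower. Atf5, a factor of the unfolded protein response that receptor protein triggers, had 1673, 1674, 1391 and 1610 CPM, between 548 CPM in Neurod1/Neurog1-high and 2904 CPM in Gap43 barcodes. Rtp1, a chaperone that carries receptors to the surface, was at 103 ± 8.04 CPM, between 24.6 and 334 CPM.

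Of 15 Notch pathway genes, 4 were higher and 5 lower than in the rest (8.94% and 17.3% of all genes). Mfng, a modifier of Notch ligand binding, was at 20.9 ± 2.35 CPM against 489 CPM in Neurod1/Neurog1-high barcodes. Genes induced by tissue dissociation were low beside the rest, with 9 of 12 lower there (17.3% of all genes). Against either neighbouring set 0 of 12 were called, for example Fos at 425 ± 91.0 CPM against 304 and 740 CPM. Over all genes 3.81% to 8.06% were called in a direction against these sets, so 0 of 12 is near the share of all genes.

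Markers of other cell types were mostly low but not absent. Of 6 globose basal markers, Ezh2 and Hes6 were higher than in the rest and Sox2 lower, and the list summed to 623 to 718 CPM against 210 to 228 CPM. The 3 vomeronasal markers in the files summed to 536 to 593 CPM against 445 to 472 CPM, with Gnao1, a G protein subunit of many neurons, at 497 ± 20.3 CPM and neither of the 2 that could be compared higher or lower than in the rest. The summed level of the 7 sustentacular markers outside the rule, which leave out Cyp2g1, was 862 to 1205 CPM per library. In Cyp2g1-high barcodes it was 30028 to 31866 CPM, and 7 of 7 were lower than in the rest. The summed level of 6 Bowman gland and keratin markers was 275 to 484 CPM against 2001 to 2209 CPM in the rest. The 5 horizontal basal markers summed to 1.5 to 37.8 CPM, with male 2 highest. All 3 endothelial markers together reached 1.5 to 2.70 CPM, with Cdh5 at 0. Macrophage markers summed to 1.37 to 105 CPM, and among T and NK markers Cd3e, Cd3g and Trbc2 were at 0. Their part in the levels above was not tested, except where barcodes with keratins were left out, as given below.

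Odorant receptors were used by no rule, so their levels could be compared between sets over the 4 libraries. There are 1103 receptor genes in the files. Reads of near-identical receptors can be counted for either copy, so values of single receptors are uncertain in this way. Each comparison is a within-library difference with an exact two-sided sign-flip permutation test, and with 4 libraries its p cannot go below 0.13. In all 32 such contrasts were computed, 30 of them gave this smallest value, and the smallest Benjamini-Hochberg adjusted p was 0.133, so no contrast could pass 0.05.

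Tex15/Crabp1 cells had 9.63, 7.46, 8.43 and 8.22 receptor UMIs per 10000 UMIs in female 1, female 2, male 1 and male 2. Neurod1/Neurog1-high barcodes had 1.65 ± 0.129, Cyp2g1-high 3.07 ± 0.179, Gap43 31.8 ± 1.39 and Omp-high 86.2 ± 3.21. The ranges of the libraries did not overlap between Tex15/Crabp1 cells and any of these sets. The difference from Neurod1/Neurog1-high barcodes was 6.78 ± 0.817 (SD, n = 4; exact permutation p = 0.13, higher in 4 of 4 libraries). The difference from Gap43 barcodes was -23.4 ± 2.12 (n = 4; exact permutation p = 0.13, lower in 4 of 4).

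Their receptor UMIs were spread over many genes. After each barcode was thinned to 5000 UMIs, a Tex15/Crabp1 cell held on average 3.39, 3.08, 3.40 and 2.79 different receptor genes in female 1, female 2, male 1 and male 2. The means of the libraries were 0.675 ± 0.0198 in Neurod1/Neurog1-high, 1.76 ± 0.0749 in Gap43, 1.92 ± 0.0628 in Omp-high and 0.921 ± 0.0584 in Cyp2g1-high barcodes. Every library of Tex15/Crabp1 cells was above every library of the other sets. Thinning left out 230 Tex15/Crabp1 cells with fewer UMIs. Without thinning the Tex15/Crabp1 cells held 5.76, 5.10, 5.33 and 4.44 receptor genes, against 2.61 to 2.68 in Gap43 barcodes.

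Few of these cells had a receptor at a high count. A receptor with at least 3 UMIs was found in 13.5%, 8.15%, 7.09% and 7.58% of cells in female 1, female 2, male 1 and male 2, which are 43, 19, 18 and 20 cells. Female 1 was far above the other libraries. The shares were 3.39% to 4.46% in Neurod1/Neurog1-high, 70.6% to 79.0% in Gap43 and 94.1% to 95.2% in Omp-high barcodes. In Cyp2g1-high barcodes, support cells at median depths of 13809 to 14312.5 UMIs, the share was 9.74% to 12.8%. With each barcode thinned to 5000 UMIs the shares were 8.54%, 4.35%, 6.64% and 7.58% in the Tex15/Crabp1 cells of female 1, female 2, male 1 and male 2, and 5.77%, 4.44%, 5.27% and 4.997% in Cyp2g1-high barcodes. At equal depth the share was thus higher than in Cyp2g1-high barcodes in 3 of 4 libraries and lower in female 2. The top receptor of each barcode held 40.1%, 32.9%, 36.7% and 46.3% of all receptor UMIs of the Tex15/Crabp1 cells, against 91.9% to 93.7% in Gap43 barcodes.

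A measure chosen after these values were seen counts only receptor UMIs of genes with 1 or 2 UMIs in a barcode, called scattered UMIs here. Tex15/Crabp1 cells had 6.8, 6.27, 6.47 and 5.49 scattered UMIs per 10000 UMIs in female 1, female 2, male 1 and male 2. The other sets lay between 1.16 and 1.97, with 1.24 ± 0.0690 in Neurod1/Neurog1-high, 1.80 ± 0.124 in Gap43, 1.81 ± 0.131 in Omp-high and 1.57 ± 0.129 in Cyp2g1-high barcodes. The differences were 5.02, 4.46, 4.45 and 4.69 in that order (exact permutation p = 0.13 each, higher in 4 of 4 libraries). Scattered UMIs were 66.8% to 84.1% of all receptor UMIs in Tex15/Crabp1 cells, 5.24% to 5.96% in Gap43 and 1.97% to 2.22% in Omp-high barcodes. The Cyp2g1-high value is given for comparison, although 9.74% to 12.8% of these barcodes had a receptor at 3 or more UMIs. Whether it measures background transcripts was not tested.

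**Figure D3:**
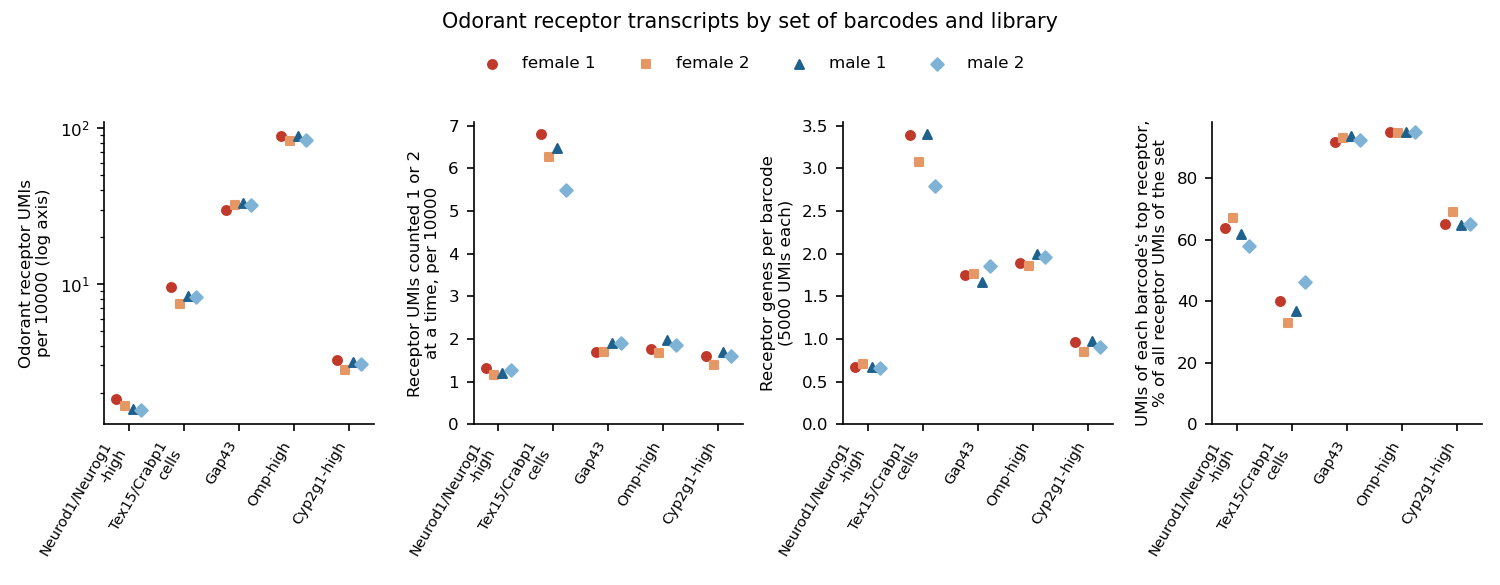
Odorant receptor transcripts by set of barcodes. From left to right the y axes give receptor UMIs per 10000 UMIs (log axis), scattered receptor UMIs per 10000 UMIs, receptor genes per barcode at 5000 UMIs, and the percent of receptor UMIs that belong to each barcode's top receptor, with 1 point per library. The Tex15/Crabp1 cells have the most receptor genes per barcode (2.79 to 3.40) and the lowest share in the top receptor (32.9% to 46.3%). This share is high by construction where a barcode holds few receptor UMIs. Neurod1/Neurog1-high barcodes had a median of 1 receptor gene without thinning, so their share cannot be read as concentration on a receptor.

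The scattered UMIs came from much of the receptor repertoire. They numbered 5800 of 7869 receptor UMIs and fell on 885 of the 1103 receptor genes, 242 of which had a scattered UMI in all 4 libraries. The 10 receptors with most scattered UMIs in the females held 7.44% of the scattered UMIs of the males, against 2.08% of those of Neurod1/Neurog1-high, 2.18% of Gap43, 1.40% of Omp-high and 1.5% of Cyp2g1-high barcodes. The scatter was therefore broad but not even.

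Olfr317 (chr11:58731018-58739212, minus strand) led these 10, with 28, 28, 23 and 21 scattered UMIs in female 1, female 2, male 1 and male 2. All 4 libraries contributed about equally. It had at least 1 scattered UMI in 85 cells (7.95%), and no cell held more than 4 of its 107 UMIs. It was at 11.6 CPM over all libraries in Tex15/Crabp1 cells, 0.412 in Neurod1/Neurog1-high, 0.0547 in Gap43, 1.78 in Omp-high and 0.337 in Cyp2g1-high barcodes. Only 9 Omp-high barcodes and no Gap43 barcode had it at 3 or more UMIs.

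Olfr46 (chr7:140601269-140617678, plus strand) had 15, 12, 11 and 15 scattered UMIs in the 4 libraries, also without a dominant one. It differed from Olfr317 in the Gap43 barcodes, where it had 203 UMIs against 1 for Olfr317. Olfr24, Olfr530 and Olfr1388 also spread over all libraries, with at least 7 scattered UMIs in each. Olfr19 and Olfr1395 were unequal, with 25 and 21 in female 1 but 4 to 8 in the other libraries.

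Receptors with most UMIs in total were mostly of another kind. Olfr361 had 246 UMIs, 157 of them in 1 cell of male 1, and Olfr1 had 127, 121 of them in 1 cell. Olfr726 had 137 UMIs with 47 in its top cell, and Olfr169 had 119 with 55. Olfr317, with 107, was the only one of the 5 leading receptors whose top cell held under 10% of its UMIs (3.74%). Trace amine receptors had at least 3 UMIs in 1 of 1069 cells and vomeronasal receptors in 3 of 1069.

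The Tex15/Crabp1 cells varied with how much Neurod1 and Neurog1 they held. The 709 cells with none, the 258 with 1 to 2 UMIs and the 102 with 3 to 5 had 412, 348 and 276 CPM of Gap43, each from the summed cells of all libraries. The libraries did not share this order, since female 2 had 382, 322 and 507 CPM. Lhx2 had the same order in every library, with summed values of 1302, 1608 and 2049 CPM, as did Sema3a, a secreted axon repellent, with 55.9, 102 and 197 CPM. Nhlh1 was at 171, 240 and 362 CPM and Gng13 at 730, 650 and 327 CPM, but in female 1 they were at 244, 241 and 390 CPM and at 518, 586 and 282 CPM. Receptor UMIs were 9.33, 7.86 and 5.17 per 10000, but 8.31, 9.98 and 3.11 in male 2. These bins are part of the rule that chose the cells and are given as a description.

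A group of 50 cells (4.68%; 13, 16, 9 and 12 per library) held at least 5 UMIs of the epithelial keratins Krt8 and Krt18. In them Krt18 was at 1623 CPM, Cyp2g1 at 539 CPM and Lhx2 at 629 CPM. Their Mki67 level was 4.71 and 0 CPM in females and 151 and 220 CPM in males. Simulated doublets marked 7 of the 50. A further 226 cells without keratins had fewer than 5000 UMIs. They had 4255 CPM of Tex15 and 3710 CPM of Crabp1, with 3.96% of UMIs in ribosomal protein genes, against 2667 CPM, 8023 CPM and 10.3% in the 793 remaining cells. Mitochondrial genes held 3.80% of UMIs in the shallow cells and 1.63% in the 793. Whether depth sets these differences was not tested, and the 793 are used next.

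Lypd1 divided the 793 cells into 304 with no UMI, 267 with 1 to 2 and 222 with 3 or more, at similar median depths of 9354.5, 9298 and 9193.5 UMIs. This split was chosen after the data were seen. Rcor1 was at 1093 ± 32.2, 1575 ± 167 and 2117 ± 76.2 CPM in the 3 bins (SD, n = 4). Hdac2, a histone deacetylase of the CoREST complex, was at 900 ± 134, 1193 ± 112 and 1680 ± 221 CPM. In Neurod1/Neurog1-high barcodes they were at 145 and 363 CPM, and in Gap43 barcodes at 183 and 538 CPM.

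Other genes rose in the same bins and were lower in both neighbouring sets than in the last bin. Cdyl, a chromodomain protein of repressive chromatin, was at 95, 153 and 254 CPM, against 29.2 CPM in Neurod1/Neurog1-high and 63.7 CPM in Gap43 barcodes. Rbm11, an RNA-binding splicing regulator, was at 64.5, 110 and 206 CPM, against 5.29 and 75.9 CPM. Sesn3, a stress-responsive sestrin, was at 117, 184 and 301 CPM, against 52.7 and 45.6 CPM. Gng13 was at 471 ± 84.4, 732 ± 154 and 1101 ± 261 CPM, against 86.0 and 808 CPM.

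Some genes fell across the bins. Grp, gastrin-releasing peptide, was at 238, 156 and 45.4 CPM, against 339 CPM in Neurod1/Neurog1-high and 10.9 CPM in Gap43 barcodes. Gnas, the ubiquitous stimulatory G protein subunit, was at 758, 498 and 261 CPM, against 1795 and 384 CPM. Selenom, a selenoprotein of the endoplasmic reticulum, was at 2176, 1568 and 951 CPM, against 2579 and 447 CPM. These 3 had their highest mean in Neurod1/Neurog1-high barcodes, whereas Fos and Pdia3, an endoplasmic reticulum chaperone, also fell across the bins but were higher in Gap43 barcodes, Pdia3 at 451 and 654 CPM. The 10 genes with the largest rise and the 10 with the largest fall were picked in the females, and all 20 kept their direction in both males.

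**Figure D4:**
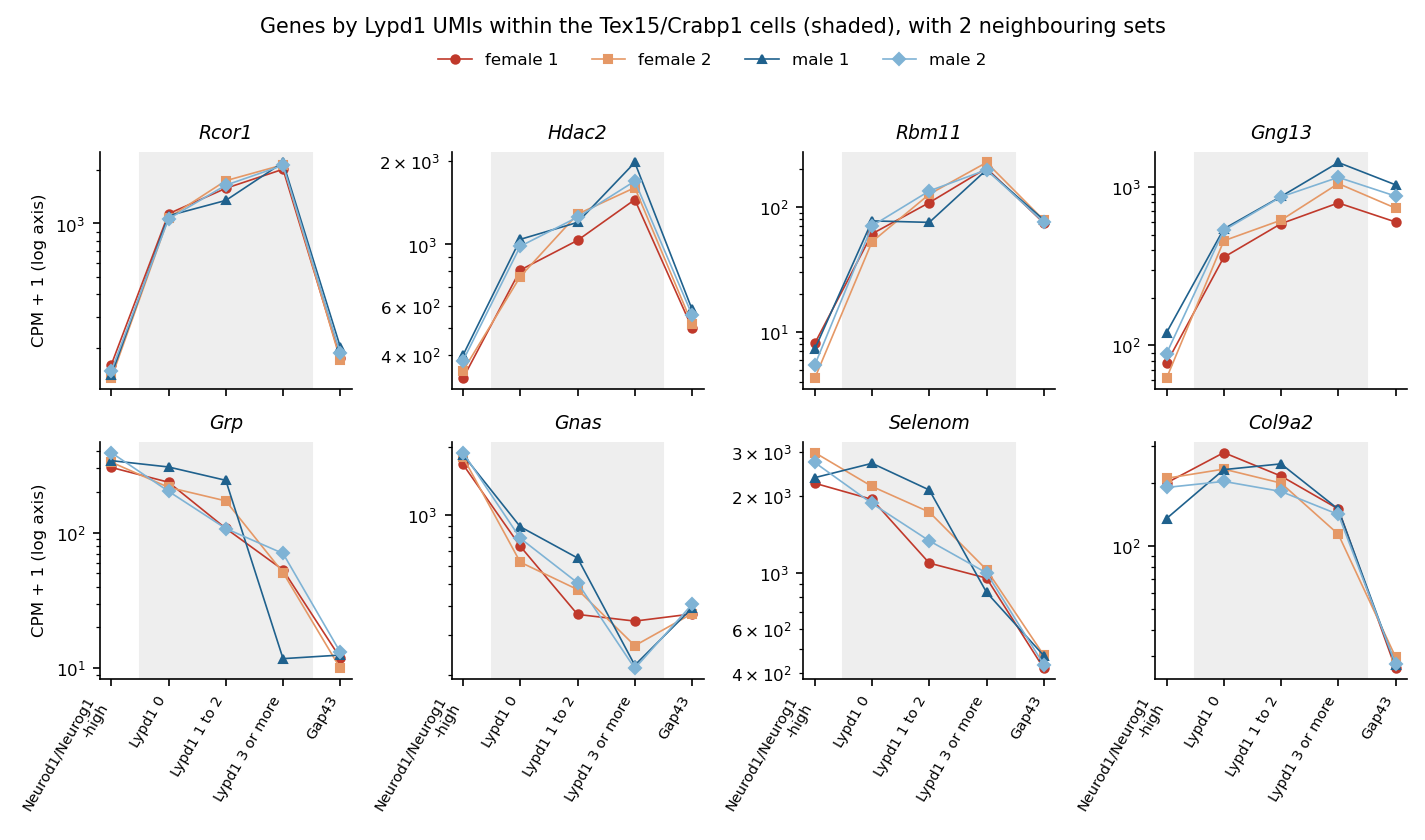
Levels of 8 genes in the Tex15/Crabp1 cells of at least 5000 UMIs and without keratins, split by Lypd1 UMIs (shaded), beside the neighbouring sets. The x axis gives the set, the y axis CPM + 1 on a log axis, and each line joins the points of 1 library. Mean Rcor1 climbs from 1093 to 2117 CPM across the Lypd1 bins and is at 145 and 183 CPM in the neighbouring sets.

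Mean receptor spread followed the Lypd1 bins. Receptor genes per cell at 5000 UMIs were 2.78 ± 0.230 with no Lypd1 UMI, 3.27 ± 0.327 with 1 to 2 and 3.78 ± 0.455 with 3 or more (SD, n = 4). The top receptor of each cell held 50.03% ± 6.96, 33.3% ± 8.65 and 25.9% ± 1.59 of the receptor UMIs. Single libraries did not all keep these orders. From the bin of 1 to 2 UMIs to that of 3 or more, female 1 went from 3.723 to 3.717 receptor genes. The top share in female 2 went from 22.5% to 27.6% between the same bins. Total receptor UMIs per 10000 hardly moved, at 8.15 ± 1.11, 7.73 ± 1.15 and 8.35 ± 0.982.

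Gap43 split the same 793 cells differently. The 174 cells with no Gap43 UMI, the 405 with 1 to 4 and the 214 with 5 or more had 3.17, 3.40 and 2.92 receptor genes at 5000 UMIs. A receptor with at least 3 UMIs was found in 4.99% ± 3.52, 7.21% ± 2.07 and 20.8% ± 9.70 of them, which are 9, 30 and 46 cells. The top receptor held 25.8%, 25.4% and 57.2% of receptor UMIs. Cells with a strongly counted receptor were thus most frequent in the last bin, with a wide spread between libraries there. Below it the order was not shared, since male 2 went from 6.38% with no Gap43 UMI to 4.82% with 1 to 4. Median depth also rose over the bins, at 8608.5, 9181 and 9863 UMIs, and its part was not tested.

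The sexes were compared on the summed UMIs of the Tex15/Crabp1 cells, which the choice of cells did not use. Of 10765 genes tested, 24 differed in edgeR's quasi-likelihood test at a Benjamini-Hochberg adjusted p under 0.05, 15 higher in males (0.139%) and 9 lower (0.0836%). Without adjustment 1090 genes had p under 0.05. The Y-linked genes Eif2s3y, Kdm5d, Uty and Ddx3y were at 0 UMIs in both females and matched the labels. With 3 UMIs over the female sums as the limit, Eif2s3y was at least 152-fold higher in males, Kdm5d at least 44.0-fold, Uty at least 30.6-fold and Ddx3y at least 27.6-fold. The X-linked partners Kdm6a and Eif2s3x were lower in males, by log2 values of -0.92 and -0.65 (edgeR, adjusted p = 0.00352 and 0.0292). These 2 and the genes of the next 2 paragraphs that are not among the 10 largest changes were named after their values were seen.

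Mki67 differed by a log2 value of 2.88 (SE 0.445; edgeR, adjusted p = 0.00626), from the library levels given above. Top2a, a DNA topoisomerase of dividing cells, had 5.69 and 5.01 CPM in females and 12.8 and 50.4 CPM in males (log2 2.60, edgeR adjusted p = 0.0471). Male 2 was far above male 1 for Top2a. Pbk, a mitotic kinase, was at 0 UMIs in females and 40 in males, and Hist1h2ap, a histone gene of a family whose copies share reads, was higher in males by a log2 value of 2.74. Sftpd, a surfactant protein, had 1.78 and 1.5 CPM in females and 8.24 and 16.6 CPM in males.

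Olfr361 was higher in males by a log2 value of 6.42, from 2 and 1 UMIs in females and 159 and 84 in males. However, 157 of its UMIs came from 1 cell, and only 2 of the 1069 cells had it at 3 or more UMIs. This difference thus rests on single cells. When the 50 keratin-bearing cells were left out, Mki67 (log2 1.21, edgeR adjusted p = 0.465) and Top2a (0.45, adjusted p = 0.843) were no longer called, and Pbk and Sftpd were too low to test. Coch, a matrix protein, was lower in males by -1.42 with these cells and was at 0.18 (adjusted p = 0.855) without them. Gstm1, a glutathione transferase, likewise moved from -0.81 to 0.51 (adjusted p = 0.107), Hspb1, a small heat shock protein, from 1.07 to 0.23 (adjusted p = 0.797), and Hist1h2ap from 2.74 to 1.48 (adjusted p = 0.00122). Of the 24 genes, 17 of the 22 that could still be tested remained called.

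Gadd45b, a stress-response gene, had 154 and 141 CPM in females and was lower in males at 54.5 and 77.8 CPM (log2 -1.10, edgeR adjusted p = 0.00145). Gadd45g, its relative that is also a marker of neural precursors, was lower by -0.98 and Klf10, a zinc-finger early response gene, by -0.89. The ranges of the sexes did not overlap for these 3 genes.

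The label markers that the rule did not use did not pass the test between the sexes. The log2 difference of males over females was 0.21 for Qdpr (edgeR, adjusted p = 0.632) and 0.06 for Lypd1 (adjusted p = 0.936). The number of calls moved with the libraries. It was 10 without female 1, 17 without female 2, 209 without male 1 and 318 without male 2, and only the 4 Y-linked genes were called in each of 13 other settings.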

How the data were processed

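Each library came as a matrix of whole UMI counts with no scaling, deposited as written by Cell Ranger 6.0.2 per the file headers. Per the submitters' processing notes the software was Cell Ranger 5.0.1 and the build mm10. The rule by which barcodes were called as cells is not given in the sources used here. Of 22399 gene IDs, 22285 had a position in GENCODE M21 (GRCm38).

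From these counts, 41911 barcodes were filtered to 39715 and the cells were chosen by the limits in the text. The 8 barcodes that met the limits but failed the filter were left out. The members, gene lists and tests were chosen with earlier results of these data known. UMIs were summed per library and set and scaled to CPM. Ratios used a pseudocount of 1 CPM, and called genes had at least 10 CPM in either set. Doublets were scored against simulated ones (2 per barcode, 50 neighbours, 0.8% marked per 1000 barcodes) and kept, except in 1 alternative. No library was a copy of another, as the chi-square per gene was 2.08 to 4.83 over all pairs.

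Sums of the Tex15/Crabp1 cells were compared between the sexes with edgeR 4.0.16 (quasi-likelihood test, TMM scaling, filterByExpr, Benjamini-Hochberg 0.05). DESeq2 1.42.0 was an alternative. On simulated data for this comparison (10567 genes) the edgeR test found 77 of 99 genes changed 2-fold and 96 of 99 changed 4-fold, none with the wrong sign, and called 9 unchanged genes. Receptor measures used exact sign-flip tests over libraries.

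The named genes were those of the lists, the 25 highest and 10 lowest ratios to the rest in the females among genes with at least 20 CPM, the 15 with the highest smallest ratio over both neighbouring sets, the 10 largest changes between the sexes and the 10 receptors with most UMIs. Some genes that these rules pick are not reported here. Other limits of the rule, doublets, depth, filters, scaling and single libraries were varied. Leaving out keratin-bearing or shallow cells was added after the data were seen. Software was Python 3.11.15, numpy 2.4.6, scipy 1.17.1, pandas 2.3.3 and scikit-learn 1.9.0.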

Additional observations from a re-analysis of the deposited data

Results flagged for a closer look

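In 5 of 48 values checked over the 4 libraries, 1 library lay far from the other 3, by the gap to its nearest neighbour relative to the whole range. Chance flags about 1 in 20 such groups. In male 2 the log2 ratio of the Tex15/Crabp1 cells to all other barcodes was -2.34 for Krt5, -2.51 for Krt14 and -1.81 for Efemp1, a matrix protein gene, each nearer to 0 than in the other libraries. In male 1 the ratio for Ghr was 3.37. The share of Tex15/Crabp1 cells with a receptor at 3 or more UMIs was 13.5% in female 1.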

How the results depend on the processing

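The mean share of Tex15/Crabp1 cells was 2.11% without shallow cells, and its sex difference ran from -0.486 to 0.239 percentage points over the left-out libraries, with the sign turned without female 1 (0.239). Genes called between the sexes numbered 316 with no filter on low counts, 103 and 90 with a Tex15 plus Crabp1 minimum of 3 and 8, 72 without marked doublets and 37 without keratin-bearing cells. They ranged from 10 to 318 with 1 library left out, where the lone library of a sex was assumed to vary like the others. DESeq2 called 16. Of the 24 genes, 14 were called by DESeq2 and 24 without the filter, so the larger counts added genes. Directions turned for Coch and Gstm1 without keratin-bearing cells (0.18 and 0.51), Hspb1 at the minimum of 8 (-0.0472), and Lypd1 without TMM scaling (-0.0062) and with 1 library left out (-0.19 without male 1, -0.16 without female 1, up to 0.29 without female 2). The causes were not tested. With the replicate number of the labels as a block, 26 genes were called, 20 of them among the 24. Deviations of same-numbered libraries had a correlation of -0.0784 over the 10765 genes. With 2 libraries per sex both numbers must give this same value, and whether the numbers mark a batch was not tested. The receptor differences kept their direction in every alternative run, from 6.53 to 7.15 against Neurod1/Neurog1-high and from -24.7 to -22.9 against Gap43 barcodes. Counting depth limits genes under about 10 CPM, where a library's sum holds few UMIs.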
